A study of Haematococcus lacustris with 4 samples.

Results

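A set of 149 genes of the green microalga Haematococcus lacustris (also called Haematococcus pluvialis) was read in every library and stood far higher in cultures fed 2 mM nitrate than in cultures fed 15 mM nitrate. The genes were chosen by the measured values themselves. Each was above 0 in all 4 libraries, and the smaller of its 2 values at 2 mM was at least 4 times the larger of its 2 values at 15 mM. They made up 1.12% of the 13248 genes in the deposited table and 6.94% of the 2148 genes above 0 in all 4 libraries, which are called shared genes here. Because all 4 libraries entered the choice, the difference between the nitrate levels is a description of these genes and is given without a test.

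All libraries came from strain CCAP 34/8, grown with light, air and added CO2 in columns under continuous feeding, and the groups differed in the nitrate of the feed, 2 mM or 15 mM, with 2 libraries each. The study's title concerns motile macrozoids and non-motile palmelloid cells in relation to astaxanthin, and the labels of the libraries do not name a cell form. They also do not say whether replicates were separate cultures, so the spread between them may be technical. Values are treated as FPKM, a read density per length of gene scaled to the reads of the library, although neither labels nor file header state the unit.

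Nitrate is taken up by membrane transporters, reduced to ammonium by nitrate reductase and nitrite reductase, and built into amino acids by glutamine synthetase and glutamate synthase. When nitrogen runs short, Haematococcus is known to lose its flagella, thicken its wall and fill with lipid droplets that hold astaxanthin, a red ketocarotenoid made from beta-carotene by a ketolase and a hydroxylase. Which of the 149 genes belong to these pathways is not given here. The deposited table has identifiers without names, and 0 of the 149 identifiers were found in a gene table made for a different assembly of this alga, so the lists for nitrogen uptake, carotenoids, flagella and other functions had no member to count. For the same reason the cell forms could not be checked against marker genes. Only 2 identifiers are printed, those of the most abundant gene and of the gene with the widest gap, and the others are described by their place in the set.

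The most abundant of the raised genes was HaLaN_04437. It stood at 12452 FPKM in replicate 1 and 10013 FPKM in replicate 2 at 2 mM nitrate, against 377 and 183 FPKM at 15 mM. The means were 11233 ± 1724 FPKM and 280.1 ± 137 FPKM (SD, n = 2 each), a log2 fold of 5.33, which was 5.94 without replicate 1 and 4.90 without replicate 2 at 15 mM. Both libraries at 2 mM lay far above both at 15 mM, and the 15 mM replicates were the less alike pair. It was the gene with the highest value of the whole table in replicate 1 at 2 mM and held rank 4 in replicate 2, whereas at 15 mM it held ranks 558 and 968.

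The widest gap belonged to HaLaN_21058. Its values were 2789 and 2728 FPKM at 2 mM, against 11.6 and 11.8 FPKM at 15 mM. The 2 mM mean of 2759 ± 43.2 FPKM was 235 times the 15 mM mean of 11.7 ± 0.134 FPKM (SD, n = 2 each), and the smaller 2 mM value was 231 times the larger 15 mM value. Its log2 fold was 7.88, and 6.99 with a pseudocount of 10. Replicates of this gene nearly coincided in each group. Its rank moved from 7168 and 7231 at 15 mM to 107 and 111 at 2 mM.

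A gap of at least 64 times between the nearest values of the groups was reached by 7 genes of the set. The gene in the second place stood at 559 and 786 FPKM at 2 mM, against 2.58 and 2.43 FPKM at 15 mM. The gene in the third place was measured at 3777 and 4469 FPKM at 2 mM, against 37.3 and 21.5 FPKM at 15 mM. In the sixth place was a gene at 5379 and 4990 FPKM at 2 mM, against 62.7 and 49.1 FPKM at 15 mM. The widest gaps thus occurred both in genes close to the lowest listed levels at 15 mM and in genes of moderate level there. Below these, 11 genes had a gap of 32 to 64 times, 28 of 16 to 32 times, 45 of 8 to 16 times and 58 of 4 to 8 times. The median gap was 10.6 times, with quartiles of 5.82 and 20.1.

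**Figure D1:**
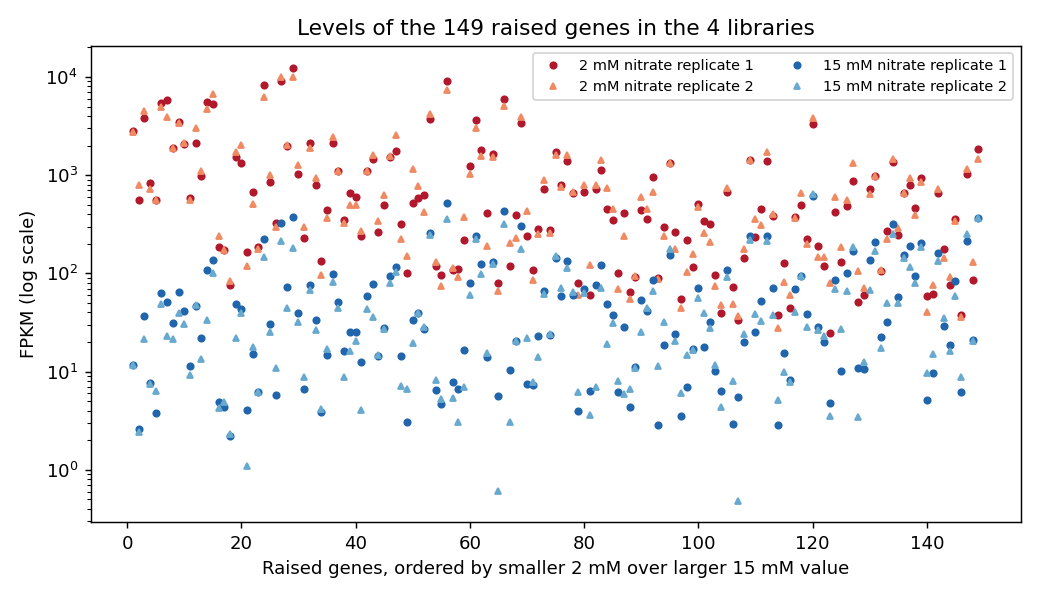
Level of each of the 149 raised genes in the 4 libraries (FPKM, log scale), ordered from the widest to the narrowest gap between the groups; each point is 1 library. The 2 mM points lie above the 15 mM points for every gene, as the choice requires, and HaLaN_04437, the highest at 12452 FPKM, is in place 29 of the order.

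Across the set, the median level was 454 and 476 FPKM in the 2 mM libraries and 31.1 and 26.5 FPKM in the 15 mM libraries. The medians averaged 464.7 ± 15.5 FPKM at 2 mM and 28.8 ± 3.27 FPKM at 15 mM (SD, n = 2 each). The range ran from 24.5 to 12452 FPKM in replicate 1 and from 27.7 to 10013 FPKM in replicate 2 at 2 mM. At 15 mM it ran from 2.20 to 618 FPKM and from 0.487 to 642 FPKM. The levels of the set thus spread widely within each condition, and these ranges overlap between the conditions although no single gene does. The median log2 fold of group means was 3.85 (quartiles 2.96 and 4.75), where all 2148 shared genes had a median of 0.37. The most abundant of the set at 15 mM, at 618 and 642 FPKM there, stood at 3321 and 3776 FPKM at 2 mM. The least abundant at 2 mM stood at 37.8 and 27.7 FPKM there and at 2.84 and 5.16 FPKM at 15 mM.

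Level in the 2 conditions was related within the set. Spearman's rho across the 149 genes between the 2 mM mean and the 15 mM mean was 0.79, a description of genes that share the same libraries and were chosen on both measures. Genes with a higher 2 mM level tended to have the larger fold (rho 0.34), and those with a higher 15 mM level the smaller (rho -0.26); each fold contains the level it is set against.

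The raised genes took a larger part of the summed FPKM at 2 mM, which follows from the choice. The choice also favours higher ranks at 2 mM, so only the sizes are described. They held 13.0% and 12.7% of the sum in the 2 mM libraries, a mean of 12.9 ± 0.202%, and 0.725% and 0.588% in the 15 mM libraries, a mean of 0.657 ± 0.0971% (SD, n = 2 each). Among the 100 highest genes of a library, 15 and 16 belonged to the set at 2 mM and 0 in either library at 15 mM. The set was 149 of the 3262 and 3435 genes above 0 at 2 mM, and of the 11658 and 10794 at 15 mM. The median rank of the set was 545 and 534 at 2 mM and 4261 and 4790 at 15 mM. A few genes carried much of this: the 10 highest at 2 mM held 41.9% and 38.0% of the set's own sum there. The summed FPKM was 1293713 and 1310747 at 2 mM, and 1483953 and 1498832 at 15 mM. FPKM is scaled to the reads of a library, so these values do not give RNA per cell. In whole cultures, fewer cells of a form and less RNA per cell cannot be told apart.

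**Figure D2:**
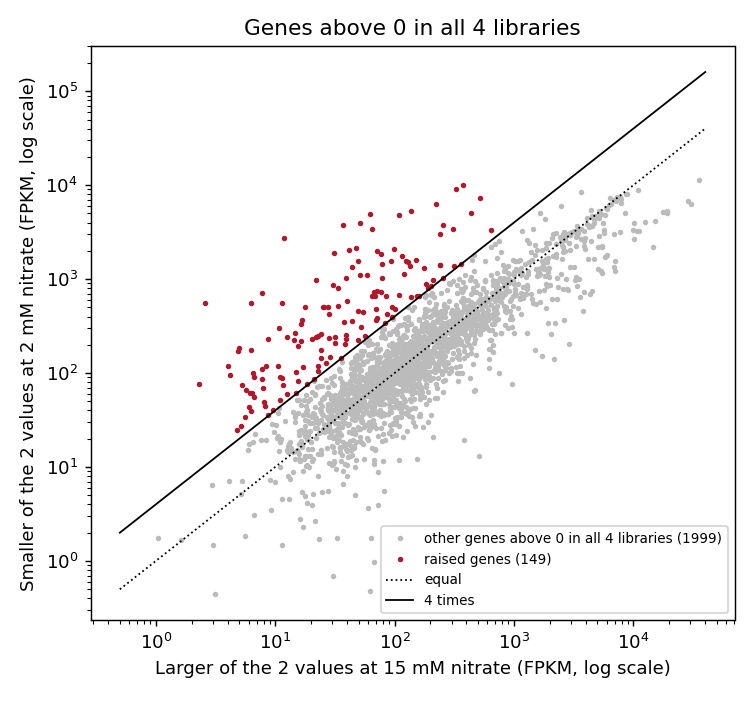
Shared genes by the larger of their 15 mM values (horizontal, FPKM, log scale) and the smaller of their 2 mM values (vertical, FPKM, log scale), 1 point a gene; lines mark equality and the 4-times limit. The 149 raised genes (red) lie on or above the limit by construction, and they run into the cloud of the other 1999 genes without a break.

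The limit of 4 times has no gap beside it. The genes just inside had ratios of 4.02, 4.05 and 4.06, and those just outside 3.95, 3.94 and 3.93. The gene nearest inside stood at 1842 and 1457 FPKM at 2 mM, against 362 and 363 FPKM at 15 mM. The gene nearest outside stood at 128 and 82.9 FPKM at 2 mM, against 15.9 and 21.0 FPKM at 15 mM. With the limit at 3 times the set would hold 200 genes, and at 8 times 91. The mirrored rule, at least 4 times higher at 15 mM among shared genes, was met by 14 genes. A gene at 0 in a 2 mM library could not meet it. The 2 mM libraries had 3262 and 3435 genes above 0, against 11658 and 10794 at 15 mM. The counts of 149 and 14 therefore do not compare the 2 directions over the whole table. Without replicate 1 at 2 mM the same rule on the 3 remaining libraries gave 255 genes, and without replicate 2 at 2 mM 276, all 149 included in each, because fewer values then have to pass.

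Scaling bears on the size of the set. With every library scaled to the same median over the shared genes, 112 of the 149 still met the rule and the median log2 fold was 3.31. With every library scaled to the same total, all 149 met it, 164 genes in all, with a median log2 fold of 4.04. The limma fit over the whole table called 469 of 11815 genes tested, or 3.97%, higher at 2 mM (adjusted p under 0.05). The same fit called 5326 genes lower at 2 mM. Its median log2 fold over the genes tested, with a pseudocount of 1, was -2.41. Fitted on the 2148 shared genes only, limma called 478 higher and 162 lower at 2 mM, with a median log2 fold of 0.34. With quantile normalization over the 11815 genes it called 571 higher and 1198 lower, with a median of 0.24. The balance of the 2 directions thus depends on the genes and scaling used. Of the 149 raised genes, 147 were called higher in the whole-table fit and all 149 in the fit on shared genes. The rule used this same contrast, so nothing is read from these counts. The number of raised genes called fell more when a 15 mM library was left out than when a 2 mM library was.

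Few genes with a low level at 15 mM were listed at 2 mM at all, and those that were listed often belonged to the raised set. The 2 mM libraries had 3262 and 3435 genes above 0, and the 15 mM libraries 11658 and 10794. Both 15 mM libraries listed 2238 genes above 0 whose mean there was under 10 FPKM. Of these, 63 (2.82%) were above 0 in both 2 mM libraries, and 35 of those 63 (55.6%) were in the set. Of the 438 shared genes at 100 to 200 FPKM at 15 mM, 16 (3.65%) were in the set, and of the 371 at 500 FPKM or more, 1 (0.270%). Taken over all genes above 0 in both 15 mM libraries, shared or not, the share in the set was 1.56% under 10 FPKM, 1.20% at 10 to 20, 1.59% at 20 to 50, 1.95% at 50 to 100, 2.05% at 100 to 200 and 2.30% at 200 to 500 FPKM. It was 0.243% at 500 FPKM or more. Low values, above 0 but below 10 FPKM, were few in the 2 mM libraries (157 and 145) and many at 15 mM (4028 and 3117). A gene low at 15 mM thus rarely had a listed 2 mM value close to its 15 mM value, and the part of detection at 2 mM in its fold was not tested. In the set, 30 genes were under 10 FPKM in both 15 mM libraries, and 26 were over 100 FPKM in both.

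**Figure D3:**
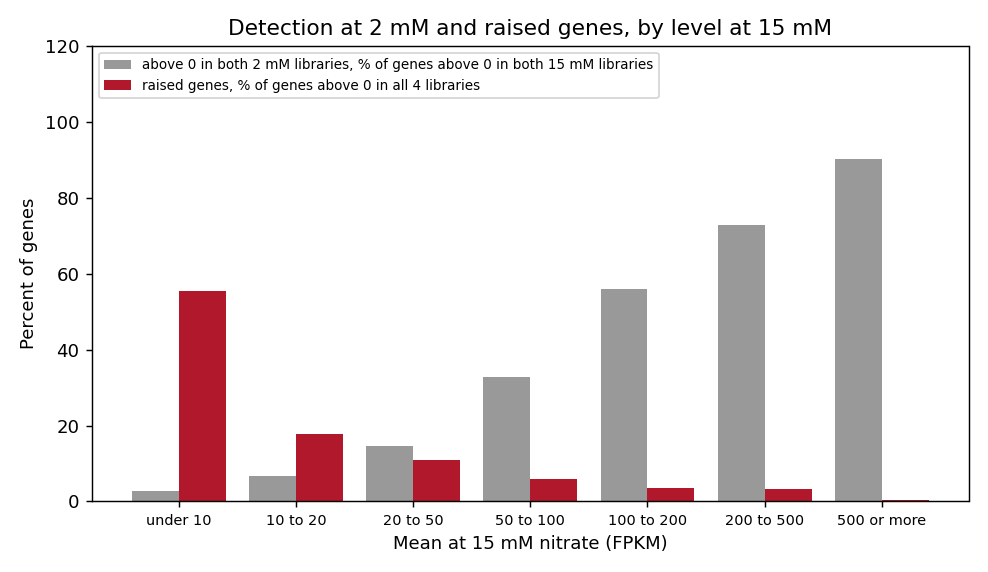
Genes above 0 in both 15 mM libraries, grouped by their 15 mM mean (horizontal, FPKM); grey bars give the percent also above 0 in both 2 mM libraries, and red bars the percent of those shared genes in the raised set. From the lowest to the highest group the grey bars go from 2.82% to 90.3%, and the red bars from 55.6% to 0.270%.

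Replicates of the raised genes were closer to each other at 2 mM and farther apart at 15 mM than those of the other shared genes. The log2 ratio of replicate 1 to replicate 2 had an SD over the genes of 0.42 at 2 mM and 0.80 at 15 mM for the set, and 0.85 and 0.40 for the other 1999 shared genes. The rule takes the smaller value at 2 mM and the larger value at 15 mM, which disfavours genes whose replicates differ in either condition, so these SDs are not free of the choice. At 2 mM, 5 of the 149 genes (3.36%) were over 2-fold apart between replicates, and 324 of the other shared genes (16.2%). At 15 mM these numbers were 26 (17.4%) and 40 (2.00%). The largest such gap at 15 mM was that of a gene at 5.56 FPKM in replicate 1 and 0.487 FPKM in replicate 2, which stood at 33.7 and 36.9 FPKM at 2 mM.

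Much of the spread at 15 mM lay at low levels. Below 10 FPKM there, its SD was 1.20 in the set and 1.22 in the other shared genes. For the 92 raised genes with a 15 mM mean of at least 20 FPKM it was 0.56, against 0.35 for 1869 other shared genes above that level. At 2 mM the same genes gave 0.34 and 0.79. The whole set also stood higher at 2 mM, with medians of 454 and 476 FPKM against 161 and 165 FPKM for the other shared genes. Replicates were not compared at matched 2 mM levels. By level, the 15 mM SD was 0.75 in the set and 0.45 in the other shared genes at 20 to 50 FPKM, 0.41 and 0.39 at 50 to 100 FPKM, and 0.32 in each at 100 to 200 FPKM. At 200 to 500 FPKM, where the set had 12 genes, it was 0.37 and 0.27. Replicate 1 was the higher of the pair at 15 mM for 98 of the 149 genes (65.8%) and for 57.5% of the other shared genes. At 2 mM it was the higher for 72 (48.3%).

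A feature the rule did not use is the number in each identifier. The plan of the analysis did not list it. Among the 149 genes, 18 (12.1%) formed 9 pairs whose numbers followed directly on each other, and there was no run of 3. HaLaN_04437 was in such a pair. The gene numbered just below it was also the next most abundant of the set, at 9035 and 9921 FPKM at 2 mM, against 328 and 215 FPKM at 15 mM, with a log2 fold of 5.13 beside 5.33. Whether the numbers follow the order of genes along the genome is not stated in the sources used here.

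Both genes of every pair were chosen for a high fold, which by itself limits how far their folds can differ. The difference in log2 fold within the 9 pairs had a median of 0.25 and ran from 0.13 to 1.59, and it was under 1 in 7 of them. Over all pairs that can be formed from the 149 genes the median difference was 1.19. In 1 pair of similar level, the values at 2 mM were 499 and 627 FPKM for the lower number and 604 and 499 FPKM for the higher. The same pair stood at 27.7 and 27.3 FPKM and at 25.6 and 20.3 FPKM at 15 mM. The pair that differed most was at 166 and 118 FPKM against 60.9 and 121 FPKM at 2 mM. At 15 mM it was at 4.05 and 1.10 FPKM against 6.34 and 3.58 FPKM. How the counting divided reads between near-identical or overlapping genes is not stated, so the values of a pair may not be independent.

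Neighbours in number were looked up for the whole set, from each raised gene in turn. A pair of raised genes thus counts from both ends, at every distance. The 18 found at a distance of 1 are the genes of the 9 consecutive pairs. At a distance of 1, 143 neighbours were in the table, 44 of them shared genes, and 18 of those 44 (40.9%) were themselves in the set, where the set makes up 6.94% of all shared genes. At distances of 2, 3, 4 and 5 the counts in the set were 0 of 24, 2 of 16, 0 of 19 and 2 of 25 shared neighbours. The other 26 shared neighbours at a distance of 1 had a median log2 fold of 0.60, and 16 of them were above 0 on that scale. Outside the set, 66.0% of all shared genes were above 0, with a median of 0.31. For such neighbours at distances of 2, 3, 4 and 5 the medians were 0.45, 0.28, 0.26 and 0.46. Above 0 were 16 of 24, 10 of 14, 11 of 19 and 18 of 23. Being listed was not more frequent beside the raised genes: 30.8% of their neighbours in the table were shared genes, and 30.5% of the neighbours of all shared genes. Over all 313 pairs of shared genes with consecutive numbers, Pearson's r of the log2 folds was 0.35 (Spearman's rho 0.27). The 313 include the 9 pairs of the set, chosen for high folds, and r was not computed without them. At a distance of 2, r was -0.04 over 182 pairs. These correlations are across genes of the same 4 libraries and are given as descriptions.

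**Figure D4:**
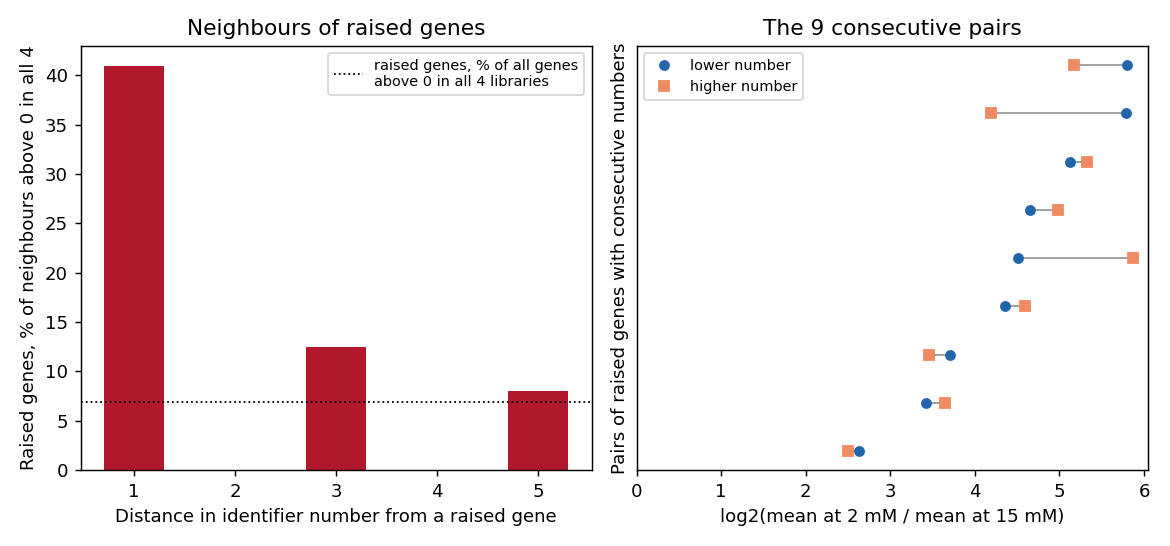
Left, shared genes at an identifier distance of 1 to 5 (horizontal) from a raised gene, as the percent that were raised genes themselves (vertical); the dotted line is the set's 6.94% of all shared genes. Right, log2 fold of group means (horizontal) for both genes of each of the 9 consecutive pairs, 1 pair a line. The bar at a distance of 1 is 40.9%, each pair being counted from both of its genes, and 7 of the 9 pairs lie under 1 log2 unit apart.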

How the data were processed

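The authors deposited 1 table of 13248 genes and 4 libraries, whose unit is not stated and was treated as FPKM. Per the submitters' processing notes, FastQC, HISAT2, StringTie and limma were used; no source used here gives their versions or settings, the genome build or the annotation. FPKM carries no read count, so depth is unknown and no interval or floor is given. A total of 25 values above 0 written without a decimal point, 1 of them in a raised gene, were divided by 1000 first. Folds are ratios of group means without a pseudocount. The whole-table fit used limma 3.58.1 (R 4.3.3) on values transformed to log2(FPKM + 1), keeping genes whose mean reached 1 FPKM, with an intensity trend, two-sided, Benjamini-Hochberg adjusted over all genes tested, and was tested on simulated data. Groups came from sample titles. The 2 identifiers were named by rule: the highest 2 mM mean and the largest ratio. The genes, lists and rules were chosen with earlier results of these data known. Gene lists were left out for want of gene names.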

Additional observations from a re-analysis of the deposited data

How the results depend on the processing

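The number of raised genes was 149. It was 352 at a limit of 2 times and 91 at 8 times, and lay between 187 and 276 when 1 library was left out; the other alternatives gave 112 to 208. Requiring 4 times only within same-numbered pairs (a replicate block) gave 159. The median log2 fold of 3.85 was 4.04 at equal library totals, 3.31 at equal medians of shared genes and 3.22 with a pseudocount of 10. It lay between 3.75 and 3.93 when 1 library was left out. Without the division by 1000, the share of the summed values was 8.11% at 2 mM and 0.486% at 15 mM. The consecutive pairs were not listed in the plan of the analysis. They numbered 25 at a limit of 2 times, 12 at 3 times and 7 at 8 times, an alternative added after seeing the data. Of the shared neighbours at a distance of 1, again counted from both genes of a pair, 47.2%, 38.7% and 51.9% were then in the set. The set made up 16.4%, 9.31% and 4.24% of the shared genes at these limits. The genes called higher by limma numbered 469, and 297 after centring on the shared genes, and lay between 212 and 749 when 1 library was left out; of the raised genes, 75 to 129 were then called, the lone library being taken to vary like the other group. With the replicate block the counts were 267 and 113. The deviations of libraries with the same number were not correlated over the genes tested (r = -0.00094). With 2 libraries per group this cannot show whether same-numbered libraries were paired, which the labels do not state. The log2 fold of HaLaN_04437 (5.33) ran from 4.79 to 5.94 over 8 alternatives and that of HaLaN_21058 (7.88) from 6.99 to 8.07, the latter moving by more than its replicate spread in 4 of them. Depth, and with it the detection limit, is unknown.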
